A study of Mus musculus with 26 samples.

Results

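Gene starts carried 16347 of the 71040 peaks of open chromatin (23.0%) listed for mesenchyme of the fetal mouse reproductive tract. A start peak is a peak of the authors' unified ATAC-seq list, on chromosomes 1 to 19 or X, with at least 1 base within 1 kb of a gene start. A gene start is the first base of the gene as its coordinates in the count table give it, read in the direction of transcription. Each peak was linked to the nearest such start, and 17325 of 40560 genes (42.7%) had at least 1 start peak. ATAC-seq maps DNA that the Tn5 transposase can cut, so a peak marks a stretch with few nucleosomes. The study held 26 samples: 8 ATAC-seq samples and 18 RNA-seq samples. All 12 fetal RNA-seq samples and the 8 ATAC-seq samples were cells sorted as Gli1+ from the mesonephros, the fetal tissue that holds the Wolffian and Müllerian ducts, from XX (female) and XY (male) embryos at E14.5 and E16.5, with 3 RNA-seq and 2 ATAC-seq samples per sex and age. The other 6 RNA-seq samples were Gli1+ and Amhr2+ cells, 3 each, from the uterus at E19.5, a tissue that the labels also call neonatal. Gli1+ cells were marked by a tamoxifen-dependent Cre, Gli1-CreER, and Amhr2+ cells by Amhr2-Cre, both with a Rosa-Tomato reporter, and tamoxifen (1 mg) was given to every dam on E12.5 and E13.5. Each sample was thus sorted for the cells that a Cre driver marked, and Gli1-CreER marks cells that expressed Gli1 around the time of tamoxifen. Markers of other cell types were read in the sorted samples too, as given below. The peak list pools all 8 ATAC-seq samples and gives positions alone, with no score and no value per sample. It therefore supports no comparison of openness between sexes or ages, and each comparison of groups here is one of RNA counts of the genes that the peaks sit at.

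The start of an active gene is kept clear of nucleosomes so that RNA polymerase II and general factors can assemble there. In mammals many starts, above all those of genes used in most cells, lie in CpG islands, stretches rich in G, C and the dinucleotide CG, where factors of the SP/KLF, ETS, NRF1 and NFY families bind. Starts of tissue-restricted genes more often lack a CpG island, and some carry a TATA box just upstream of the first transcribed base. In the tract, mesenchyme lies around the epithelial ducts, receives Hedgehog ligands from epithelium and hormones from the gonads, and forms smooth muscle and stroma.

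The stretches below show what these windows look like at genes to which the results return. Each is the part of a start peak that lies up to 270 bases upstream and 29 bases downstream of the gene start, except that of Ptch1, whose peak lies wholly upstream. They were read from the reference genome GRCm38 (mm10) on the strand of the gene, 5′ to 3′. Capitals mark matches to the motifs defined with the composition below, on either strand. The Polr2a stretch (chr11:69758608-69758907, minus strand) is a start of a gene used in all cells, and Smo (chr6:29735424-29735723, plus strand) is the most GC-rich of the 7, at 75.3% G and C. Ptch1 (chr13:63566196-63566495, minus strand) holds a match to the core of the GLI motif, and Hhip (chr8:80057977-80058164, minus strand) a CREB/ATF match. Etv4 (chr11:101785342-101785539, minus strand), Myh11 (chr16:14291343-14291589, minus strand) and Aspn (chr13:49544234-49544472, plus strand) belong to genes whose counts differed between sexes or ages, and Aspn is the poorest in G and C, at 31.8%.
Polr2a: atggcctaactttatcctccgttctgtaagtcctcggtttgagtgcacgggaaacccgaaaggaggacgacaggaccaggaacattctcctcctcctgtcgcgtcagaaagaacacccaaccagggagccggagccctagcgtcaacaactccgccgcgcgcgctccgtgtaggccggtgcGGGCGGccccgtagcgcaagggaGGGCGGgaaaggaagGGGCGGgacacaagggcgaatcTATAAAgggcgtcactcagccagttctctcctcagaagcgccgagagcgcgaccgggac
Smo: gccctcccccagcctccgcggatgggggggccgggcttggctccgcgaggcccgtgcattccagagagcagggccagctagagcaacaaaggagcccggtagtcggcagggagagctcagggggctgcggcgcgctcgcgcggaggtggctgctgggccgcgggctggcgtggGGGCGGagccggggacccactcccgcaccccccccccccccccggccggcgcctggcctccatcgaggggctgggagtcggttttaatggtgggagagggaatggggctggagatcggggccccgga
Ptch1: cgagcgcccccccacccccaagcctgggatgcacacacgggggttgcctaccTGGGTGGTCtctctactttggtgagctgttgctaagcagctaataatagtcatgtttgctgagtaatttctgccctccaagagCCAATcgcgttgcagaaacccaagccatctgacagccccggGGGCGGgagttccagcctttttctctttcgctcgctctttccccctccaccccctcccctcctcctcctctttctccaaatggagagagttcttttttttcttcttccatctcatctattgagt
Hhip: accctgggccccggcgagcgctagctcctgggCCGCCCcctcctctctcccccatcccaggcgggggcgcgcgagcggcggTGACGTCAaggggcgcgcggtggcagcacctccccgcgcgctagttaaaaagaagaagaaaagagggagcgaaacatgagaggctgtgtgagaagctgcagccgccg
Etv4: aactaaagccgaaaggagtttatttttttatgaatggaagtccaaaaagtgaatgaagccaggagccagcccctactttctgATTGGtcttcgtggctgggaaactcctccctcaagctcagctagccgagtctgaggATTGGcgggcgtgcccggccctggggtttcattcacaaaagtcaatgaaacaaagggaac
Myh11: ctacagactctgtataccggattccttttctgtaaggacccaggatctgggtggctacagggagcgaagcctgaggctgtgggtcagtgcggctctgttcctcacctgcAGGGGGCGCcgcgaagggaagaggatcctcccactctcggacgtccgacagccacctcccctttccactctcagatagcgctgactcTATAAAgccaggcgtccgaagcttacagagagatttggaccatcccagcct
Aspn: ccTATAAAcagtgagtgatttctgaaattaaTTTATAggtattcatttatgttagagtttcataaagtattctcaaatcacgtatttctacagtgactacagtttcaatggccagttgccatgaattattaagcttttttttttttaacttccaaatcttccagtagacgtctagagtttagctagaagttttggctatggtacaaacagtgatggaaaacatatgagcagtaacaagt

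In the Polr2a stretch, which encodes the largest subunit of RNA polymerase II, 3 GC boxes began 89, 66 and 51 bases upstream of the start, and a TATA box lay at positions -29 to -24. The Myh11 stretch held a TATA box at -21 to -16, and its peak also held a match to the CTCF core. In Aspn the TATAAA letters occurred at -207 and, on the other strand, at -178, not next to the annotated start. The GLI match of Ptch1 lay at -708 to -700. Etv4 had CCAAT letters on the other strand at -86 and at -30. A match is a run of letters and does not show that a factor was bound.

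Start peaks were wide and sat on the start itself. Of the 16347 peaks, 11209 (68.6%, 95% Wilson interval 67.9 to 69.3) covered the gene start that they were linked to. Their centres lay a median of 24.0 bp downstream of the start, with quartiles of -55.5 and 108 bp. Of the 5138 that missed it, 3089 (60.1%) lay downstream, inside the gene, and 2049 (39.9%) upstream, at a median gap of 404 bp. Start peaks had a median width of 492 bp (quartiles 264 and 703 bp), against 192 bp (118 and 345 bp) for the 54637 other peaks on the same chromosomes. Peaks that covered the start had a median width of 592 bp, and those that missed it 209.5 bp, close to the other peaks. The start peaks that missed the start were thus more like distant peaks in width than like covering peaks. A wide peak is more likely to cover a given base or reach its window, so part of these width differences follows from the rule. Between start peaks and other peaks the difference was largest among broad peaks: 989 of the 1238 peaks at least 1000 bp wide (79.9%) were start peaks. Start peaks made up 37.3% of all bases in peaks. At the edge of the rule there was no step, with 315 peaks 901 to 1000 bp from the start (median width 167 bp) and 331 peaks 1001 to 1100 bp from it (182 bp). A window of 2 kb held 18768 peaks.

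**Figure D1:**
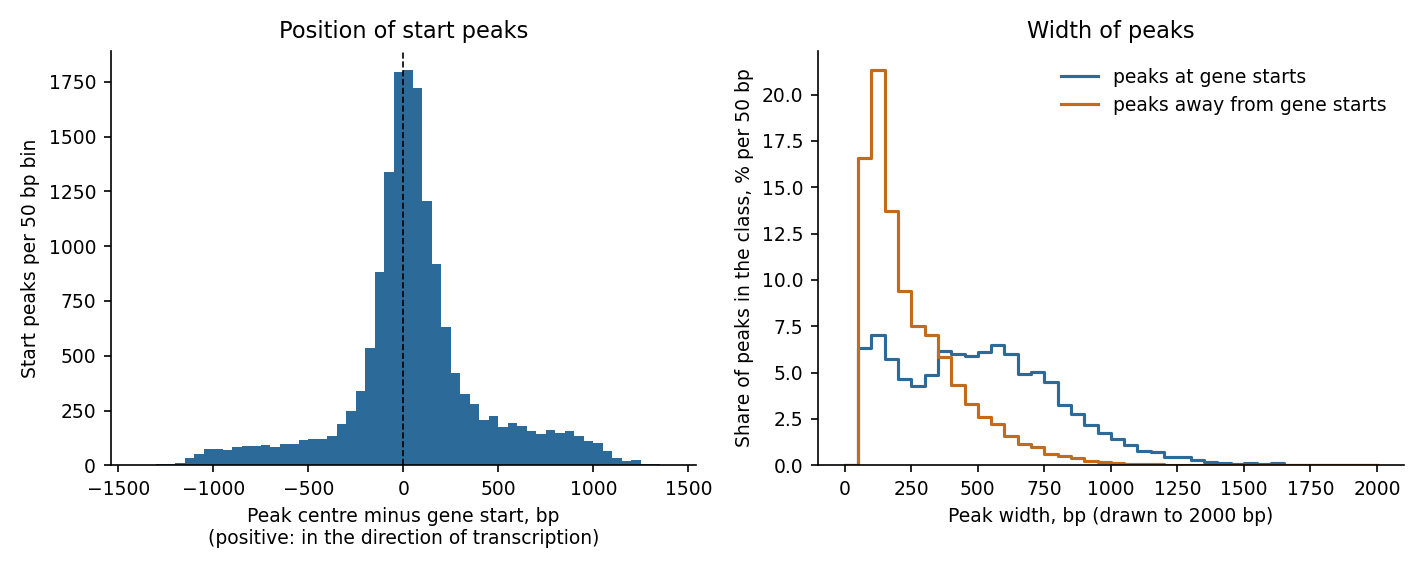
Position and width of start peaks in the unified ATAC-seq list. Left, number of start peaks per 50 bp bin by the distance from the gene start to the peak centre in bp, in the direction of transcription; right, share of peaks in percent by peak width in bp for start peaks and other peaks. Most centres lie close to the start, and start peaks are shifted to larger widths, with a median of 492 bp against 192 bp.

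Of the start peaks, 3283 (20.1%) lay within 1 kb of 2 or more gene starts. Among the 3068 near exactly 2, 1622 (52.9%) joined head-to-head genes whose bodies did not overlap, which transcribe away from each other, 1116 (36.4%) joined overlapping genes on opposite strands and 330 (10.8%) genes on the same strand. Peaks near 2 starts had a median width of 604 bp, and peaks near 1 start 461 bp. By gene class, 62.5% of protein-coding genes (13385 of 21404) had a start peak, 24.8% of long non-coding genes, 14.4% of microRNA genes and 6.84% of snoRNA or snRNA genes. Most genes with a start peak had 1 (14924), 2262 had 2, 134 had 3 and 5 had 4. The 5 were Sox12, Cdc42ep3, Vezf1, Gm10715 and Sh3rf3. Sox12, a transcription factor gene, had 4 peaks of 1224 bp in all.

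The widest start peak, 3942 bp at chr14:19415714-19419655, covered the start of Gm21738, a predicted gene with 0 counts in every fetal library. The next, 3641 bp at chr17:39843114-39846754, lay 101 bp from the start of RP23-81C12.1, and the third, 3007 bp, covered that of Ppp2r3d on chromosome 9. The mean fetal level was 89.1 CPM for RP23-81C12.1 and 6.75 CPM for Ppp2r3d. The processing notes give no parameters for reads that map to several places. Mapping artefacts among these widest peaks and those of Gm10715 were not tested. The peak at Rpl7, which encodes a protein of the large ribosomal subunit, was 2057 bp wide, and that at Rap1gds1, which encodes an exchange factor for small GTPases, 1951 bp.

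The DNA under start peaks was rich in G, C and CG. In windows of 301 bp centred on the peak, the median G and C content was 64.8% for start peaks and 47.5% for other peaks. All windows have this length, so those of narrower peaks include bases outside the peak. This holds for most other peaks, whose median width was 192 bp, and for fewer start peaks (492 bp). The median number of CG dinucleotides was 24.0 and 4.0. Windows with at least 50% G and C and an observed-to-expected CG ratio of at least 0.6, called CpG-rich here, made up 70.1% of start peaks and 5.36% of other peaks. The share rose with width, from 35.3% of start peaks of 50 to 99 bp to 90.4% of those of 800 to 999 bp, and was 87.8% at 1000 bp or more. Narrow start peaks therefore differed from wide ones in base composition as well as in position, since 10.4% of the narrowest class and 93.1% of the 800 to 999 bp class covered the start. A wide peak is more likely to cover a start by its length alone, and this part was not separated.

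Motifs were searched as exact letters on both strands of the same windows, and the letters of no motif lie inside those of another. A share of peaks below is thus a share of their windows, which can reach past a narrow peak. The GC box of SP/KLF factors (GGGCGG) was in 61.6% of start peaks and 11.1% of other peaks. The ETS core (CCGGAA) was in 22.3% and 5.02%, the NRF1 core (GCATGCGC) in 3.46% and 0.672%, the CREB/ATF site (TGACGTCA) in 2.40% and 0.516%, and YY1 letters (AAGATGGCG) in 2.5% and 0.280%. All 5 contain the letters CG, and the ratio of the shares was smaller within CpG-rich windows: the GC box was in 75.1% of CpG-rich start peaks and 59.9% of CpG-rich other peaks, and the ETS core in 26.9% and 16.4%. YY1 letters were in 3.33% of CpG-rich start peaks and 1.06% of CpG-rich other peaks. CCAAT letters, the NFY box, were in 30.1% and 30.8% of all windows, but in 28.6% and 23.3% of CpG-rich and 33.8% and 31.2% of CpG-poor windows, a higher share under start peaks in each.

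Other letters were less frequent under start peaks. AP-1 (TGANTCA) was in 3.93% of start peaks and 10.1% of other peaks, TEAD (GGAATGT) in 3.02% and 7.59%, RUNX (TGTGGTT) in 2.85% and 6.33%, forkhead (TGTTTAC) in 2.01% and 4.83%, and homeobox letters (TAATTA) in 1.76% and 7.56%. SOX letters (ACAATGG) were in 1.86% and 3.06% and the COUP-TF repeat (GGTCAAAGG) in 0.202% and 0.353%. Within CpG-rich windows the SOX shares were 1.5% and 1.54%, and the RUNX shares 1.99% and 2.05%. Those of the COUP-TF repeat were reversed there, 0.183% and 0.0341%. The last is a share of 2931 windows, so very few matches stand behind the reversal. The CTCF core (AGGGGGCGC) was in 2.40% and 1.26%, a higher share under start peaks as a whole, but within CpG-rich windows the order was the reverse, 2.80% and 5.08%. The GLI core (GACCACCCA), the motif of the factors that carry the Hedgehog signal, was in 58 start peaks (0.355%) and 272 other peaks (0.498%). Its shares were 0.552% and 0.497% in CpG-poor windows and 0.271% and 0.512% in CpG-rich ones. TATA letters (TATAAA) were in 4.81% and 18.1% of windows, and 157 of 17323 gene starts with a peak (0.906%) had them 20 to 40 bases upstream, against 594 of 23228 starts without one (2.56%). These shares are descriptions of letters, and the base composition differs between the classes.

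**Figure D2:**
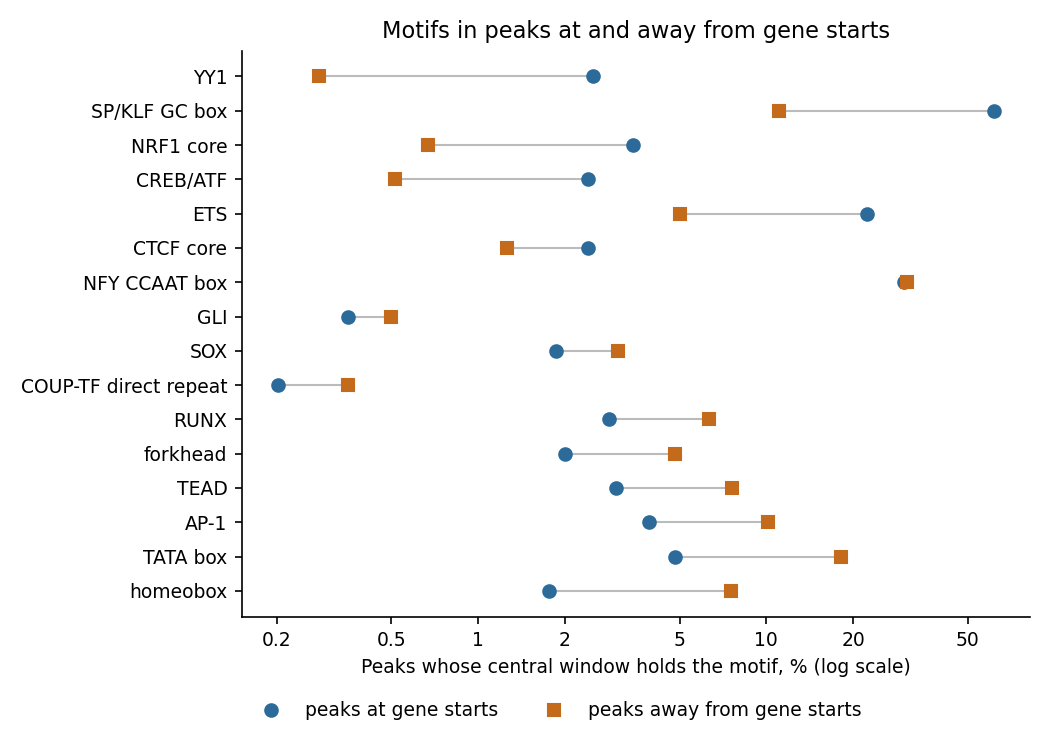
Share of 301 bp windows, in percent on a log axis, that hold each motif under start peaks and under other peaks. GC box, ETS, NRF1, CREB/ATF and YY1 letters are more frequent under start peaks, AP-1, TEAD, RUNX, forkhead, homeobox and TATA letters under other peaks, and CCAAT letters are at 30.1% and 30.8% over all windows.

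Genes with RNA in the fetal Gli1+ cells mostly had open chromatin at the start. Of the 17834 genes on these chromosomes with enough counts to be tested, 14100 (79.1%) had a start peak, and of the 22726 others 3225 (14.2%). Among tested protein-coding genes the share was 86.2%, and 90.9% had a peak within 1 kb of at least 1 annotated transcript start when every GENCODE start of the gene was counted. RPKM, the TMM-scaled CPM per kilobase of exon, was used to compare levels between genes. The median level was 5.96 RPKM for tested genes with a start peak and 0.486 RPKM for tested genes without one. By decile of RPKM the share with a start peak was 44.7% in the lowest, 83.8% in the fifth, 95.3% in the ninth and 94.5% in the highest. The share thus climbed up to the sixth decile (91.1%) and was level from the seventh (94.0%) on. Among genes whose start was covered, wider peaks went with higher levels, with a median of 1.21 RPKM for peaks of 50 to 199 bp and 10 RPKM for peaks of 1000 bp or more. Across these 11492 genes Spearman's rho was 0.22, a description across genes that share libraries.

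**Figure D3:**
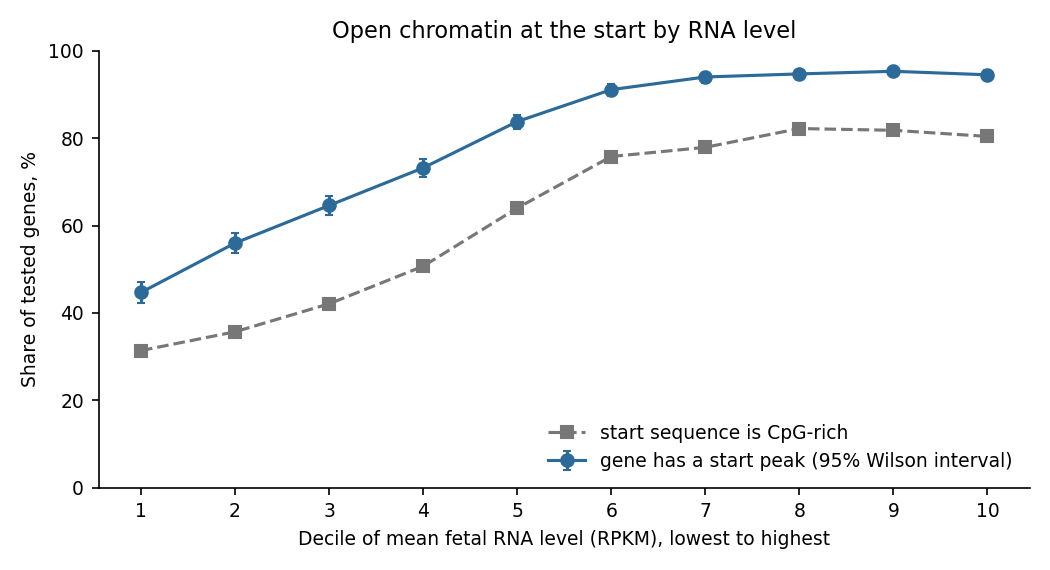
Share of tested genes with a start peak, in percent, by decile of mean fetal RPKM, with 95% Wilson intervals (circles), and share of tested genes whose start window is CpG-rich (squares, dashed line). The share with a start peak goes from 44.7% in the lowest decile to 94.5% in the highest and reaches 91.1% in the sixth.

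CpG content and RNA level moved together with the presence of a peak. A start peak was found at 96.7% of tested genes with a CpG-rich start window and at 50.6% of tested genes with a CpG-poor one. Among genes that were not tested the shares were 65.5% and 9.66%. Genes with a start peak held 94.0 to 94.4% of all counts in every fetal library. At E14.5 the share was 94.3% ± 0.0520 (SD, n = 3) in females and 94.1% ± 0.050 in males, a difference of 0.238 percentage points, with no overlap between the groups (two-sided exact permutation p = 0.1, the smallest possible, and 0.150 after Benjamini-Hochberg adjustment over 3 comparisons). At E16.5 it was 94.2% ± 0.204 and 94.0% ± 0.0410 (exact permutation p = 0.300), and in the uterus 94.2% ± 0.0730 in Amhr2+ and 94.3% ± 0.0404 in Gli1+ cells (exact permutation p = 0.1).

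A few abundant genes had no start peak. The 10 highest were Sparc, Rian, Nid1, Mest, Chd3, Bgn, H3f3b, Fbn1, Flrt2 and Lsp1. Of these, 7 had a peak within 1 kb of another annotated transcript start, so the outermost start used here was not the one in open chromatin. Rian, Nid1 and Bgn had none. Nid1, which encodes the basement membrane protein nidogen, had its nearest peak 21897 bp from the start. Fbn1, which encodes fibrillin, just missed the rule, with a peak 1010 bp away. Amhr2, the receptor for anti-Müllerian hormone and the gene behind the Cre driver of the uterine cells, had no start peak either, and its nearest peak was 2636 bp away, though its level at E14.5 was 30.6 ± 1.84 CPM for females against 8.47 ± 1.45 for males (SD, n = 3).

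The reverse case was open chromatin at genes with few or no counts. Genes with at most 3 counts in every fetal library are called silent here, which does not show that they made no RNA. Of 17773 such genes, 1791 (10.1%) had a start peak, and 665 (3.74%) had a peak over the start itself. In 341 of the 665 (51.3%) the same peak also lay within 1 kb of the start of a tested gene, in 64 (9.62%) the silent start lay inside a tested gene, and in 260 (39.1%) neither held. Of the 260, 73 were protein coding. They included Hrh3, a histamine receptor gene (peak of 813 bp), and Sox21, a transcription factor gene of neural progenitors (786 bp). They also included Wnt1, a signalling ligand gene (408 bp), and Med10 (506 bp) and Pagr1a (954 bp), each with at most 1 count. Whether counts were lost where annotated genes overlap was not tested.

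Marker lists were read against the share of all protein-coding genes with a start peak, 62.5%, and of tested ones, 86.2%. Of 30 genes of tract mesenchyme, all had a start peak, as did 12 of 12 housekeeping genes, 14 of 16 genes of the Hedgehog pathway, 10 of 12 of the anti-Müllerian hormone pathway, 8 of 10 nuclear receptor and androgen-converting genes and 7 of 8 smooth muscle genes. Among lists of other cell types the count was 4 of 12 for epithelium, none of which covered the start, 4 of 10 for endothelium, 0 of 10 for immune cells, 2 of 10 for erythroid cells, 1 of 8 for germ cells, 4 of 10 for gonad somatic cells, 6 of 10 for neural cells, near the share of all protein-coding genes, 1 of 8 for liver and 2 of 8 for skeletal muscle. Among 1107 olfactory receptor genes, which are used in the nose, 9 had one (0.813%). Of the Hox genes, which set position along the body axis, 26 of 39 had a start peak. Shh and Dhh, the Hedgehog ligand genes that epithelium and gonad use, were the 2 Hedgehog genes with none, and their levels were 0.0793 and 0.0345 CPM over the fetal libraries.

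Library totals lay between 23382983 and 64602477 counts per fetal library and between 28709191 and 37541045 per uterine library. The number of ATAC-seq reads behind the peak list is not given. Xist, the RNA of the inactive X, was at 3162 CPM or more in each female library and at 0.673 to 16.2 CPM in the E14.5 male libraries, the highest in replicate 3. Markers of other cells differed between groups. The summed level of 12 epithelium markers was 27.2 to 30.6 CPM in E14.5 females, 33.5 to 42.3 in E14.5 males, 15.5 to 20.7 in E16.5 females and 22.7 to 24.0 in E16.5 males. That of 10 endothelium markers was 116 to 128 and 105 to 119 CPM at E14.5 in females and males, and 67.0 to 80.4 and 83.3 to 92.9 at E16.5. That of 10 immune markers was 33.9 to 80.7 CPM in E16.5 females and 14.4 to 48.6 in E16.5 males, and of 9 tested, 6 were higher in E16.5 females and none lower, with a median log2 fold change of 1.92. With age 7 of the 9 rose in females and 4 in males. Over all genes tested, 13.2% were higher in E16.5 females, and with age 21.0% rose in females and 13.1% in males. The summed level of 10 erythroid markers was 980.1 CPM in one E14.5 female library and 8.60 CPM in another. No epithelium, endothelium or immune marker was at 0 in all fetal libraries, and the part of these cells in the differences below was not tested.

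At E14.5 few open-start genes differed between the sexes. Of 14100 start-peak genes tested, 961 (6.82%) differed at a Benjamini-Hochberg adjusted p under 0.05 in edgeR's quasi-likelihood test, against 6.28% of all genes tested. Of these, 406 were higher in females (2.59% of all tested genes were) and 555 higher in males (3.69%). Nothing in the labels says whether the 3 samples of a group came from separate embryos or pools, so the p-values measure the spread between these samples. Fold changes are log2, female over male, and levels are TMM-scaled CPM. The count rests on the libraries: it was 464 without male replicate 3, 472, 558 and 556 without female replicates 1, 2 and 3, 582 without male replicate 2 and 1476 without male replicate 1.

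Etv4, an ETS factor gene induced by FGF signalling, was higher in females. It was read at 15.4, 14.1 and 14.8 CPM in females of E14.5 and at 3.45, 4.72 and 2.81 CPM in males of that age, with no overlap (log2 fold change 2.01, SE 0.173, adjusted p = 4.25e-06). Its peak of 508 bp covered the start. Ntrk2, the receptor for the neurotrophin BDNF, was at 247, 209 and 221 CPM in females and 97.5, 88.8 and 97.0 CPM in males (1.26, SE 0.0666, adjusted p = 9.91e-08). Genes named for the largest changes in each direction were taken only if the groups did not overlap, so that trait follows from the rule. Ramp3, a partner of the calcitonin receptor-like receptor, was at 37.2 ± 3.88 CPM (SD, n = 3) in females and 15.2 ± 1.69 in males (1.29, SE 0.126, adjusted p = 1.69e-05).

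Among the genes furthest to the male side, Chodl, a C-type lectin gene, was at 11.9, 8.0 and 14.3 CPM in females and 90.5, 82.2 and 78.2 CPM in males (log2 fold change -2.87, SE 0.171, adjusted p = 1.03e-06). Smoc1, a secreted modulator of BMP signalling, was at 2.77, 2.11 and 3.48 CPM in females and 12, 13.4 and 17.7 CPM in males (-2.37, SE 0.219, adjusted p = 4.56e-05). Both had a peak over the start, 654 and 182 bp wide. Wfdc1, a secreted protein gene of the whey acidic protein family, had only a peak of 93 bp, 813 bp upstream, and was at 6.51 ± 0.208 CPM in females and 25.4 ± 1.49 in males (SD, n = 3; -1.97, SE 0.122, adjusted p = 4.91e-07). A narrow peak far from the start thus stood at a gene with a clear difference in RNA.

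At E16.5 the count was larger. Of the 14100 start-peak genes, 4120 (29.2%) differed, against 27.3% of all genes tested, 1931 of them higher in females (background 13.2%) and 2189 higher in males (background 14.1%). The tested genes without a start peak were called less often, 4.26% (95% Wilson interval 3.66 to 4.95) at E14.5 and 20.3% (19 to 21.6) at E16.5, and they also had the lower levels given above, whose part in this was not tested. For values of the genes named below that passed, the direction held under each alternative setting run.

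Genes of the receiving side of the Hedgehog pathway differed from one another. Smo, the transducer whose peak of 1019 bp covered a CpG-rich start, was at 216, 242 and 199 CPM in E16.5 females and 219, 239 and 198 CPM in E16.5 males, with overlapping groups (log2 fold change 0.01, SE 0.0787, adjusted p = 0.970). Gli1, both a transcription factor of the pathway and a target of it, was at 54.0, 49.7 and 48.5 CPM in females and 194, 211 and 220.2 CPM in males (-2.04, SE 0.0712, adjusted p = 3.53e-11). No male library came near a female one. Gli1 is also the gene behind the Cre driver of these cells. Its 2 start peaks included one of 162 bp that ended 8 bp from the start.

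The targets that feed back on the pathway were lower in females too. Ptch1, the receptor that holds Smo inactive, was at 72.5, 68.6 and 88.7 CPM in females and 423, 751 and 838 CPM in males (-3.13, SE 0.234, adjusted p = 4.50e-06). Hhip, which binds and sequesters the ligands, was at 2.69, 1.87 and 1.95 CPM in females and 65.7, 102 and 91.0 CPM in males (-5.31, SE 0.188, adjusted p = 4.14e-10). In both genes the groups did not overlap, which the naming rule required of Hhip, and male replicate 1 was the lowest of the males. Of the coreceptors, Cdon was higher in females, 379 ± 20.8 against 241 ± 14 CPM (SD, n = 3; 0.65, SE 0.0858, adjusted p = 3.35e-05), and Boc lower, 228 ± 3.71 against 299 ± 31.4 CPM (-0.39, SE 0.0695, adjusted p = 0.000504). Over the 14 tested Hedgehog genes with a start peak, 2 were higher in females, 5 lower and 7 did not pass, and the median log2 fold change was -0.05, against 0.01 for all genes tested. With the E16.5 libraries paired by number, 4 were higher and 5 lower. At E14.5 the counts were 0 and 4. Over all genes tested, 13.2% were higher and 14.1% lower in females at E16.5, and 2.59% and 3.69% at E14.5. Gli1 at E14.5 (184, 184 and 184 CPM in females and 213, 246 and 224 in males; -0.31, SE 0.0683, adjusted p = 0.0125) no longer passed when female replicate 1, 2 or 3 or male replicate 2 was left out (adjusted p 0.0538 to 0.0689).

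Of the receptors for sex steroids, Esr1 and Pgr were higher in females. Esr1, the oestrogen receptor, was at 195, 199 and 193 CPM in E16.5 females and 80.4, 82.0 and 83.3 CPM in E16.5 males (log2 fold change 1.26, SE 0.0516, adjusted p = 1.35e-10). Pgr, the progesterone receptor, was at 99.7, 98.8 and 99.6 CPM in females and 29, 22.6 and 21.7 CPM in males (2.02, SE 0.156, adjusted p = 6.57e-07). Neither pair of groups overlapped. Esr1 had a peak of 315 bp over the start, and the peak of Pgr, 519 bp wide, began 455 bp downstream of it. Of 8 tested genes of this list with a start peak, 2 were higher in females and 1, Nr3c1, the glucocorticoid receptor gene, higher in males (-0.24, adjusted p = 0.0468). The shares of all genes tested were 13.2% and 14.1%. The call of Nr3c1 was lost when only the 6 E16.5 libraries were fitted or without any E16.5 library but male replicate 1 (adjusted p 0.0660 to 0.161).

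Smooth muscle genes were higher in males. Of 7 with a start peak, 5 were higher at E14.5 and 6 at E16.5, and none lower, with a median log2 fold change of -1.76 and -1.85 against -0.01 and 0.01 for all genes tested. Over all genes tested, 3.69% were higher in males at E14.5 and 14.1% at E16.5. Acta2, smooth muscle actin, was at 241, 245 and 339 CPM in E16.5 females and 1245, 1935 and 2245 CPM in E16.5 males (-2.72, SE 0.249, adjusted p = 2.66e-05). Myh11, the smooth muscle myosin heavy chain whose TATA box is shown above, was at 13, 17 and 16 CPM in females and 215, 386 and 342 CPM in males (-4.35, SE 0.269, adjusted p = 1.69e-06). Myocd, the coactivator that drives these genes, was at 21.7 ± 0.963 CPM in females and 71.8 ± 15.5 in males (SD, n = 3; -1.73, SE 0.157, adjusted p = 2.94e-06). Male replicate 1 was again the lowest of the males for all 3 genes, though above each female library. In sorted pools of cells, fewer cells of a type and less RNA per cell cannot be told apart.

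Among genes higher in E16.5 females, Rspo2, a secreted enhancer of Wnt signalling, was at 14.2, 14.9 and 18.5 CPM in females and 1.67, 1.28 and 1.07 CPM in males (log2 fold change 3.58, SE 0.247, adjusted p = 4.61e-08). Sall1, a zinc-finger repressor gene, was at 12.2, 17.7 and 12.9 CPM in females and 0.751, 0.240 and 0.679 CPM in males (4.62, SE 0.287, adjusted p = 4.29e-08). In both the groups did not overlap, which the naming rule required. Dpp10, which encodes a subunit of potassium channels, was at 31.3 ± 2.55 CPM in females and 3.8 ± 0.539 in males (SD, n = 3; 3.05, SE 0.115, adjusted p = 7.46e-11). Rspo2 had a peak of 553 bp over the start, while the nearest peaks of Sall1 and Dpp10 lay 477 bp downstream and 357 bp upstream. Wfdc1, at 2.06 ± 0.165 CPM in females and 53.1 ± 9.67 in males (-4.68, SE 0.136, adjusted p = 1.18e-11), was with Hhip among the genes furthest to the male side.

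Of 29 tested genes of tract mesenchyme with a start peak, 10 were higher in females at E16.5 and 8 higher in males. The shares of all genes tested were 13.2% and 14.1%. Tcf21, a factor of urogenital mesenchyme, was at 141, 136 and 92.4 CPM in females and 282, 287 and 264 CPM in males (log2 fold change -1.18, SE 0.192, adjusted p = 0.00110), with female replicate 3 the lowest. Bmp4, a ligand that mesenchyme sends to epithelium, was at 12, 13.5 and 9.65 CPM in females and 56.7, 76.8 and 61.5 CPM in males (-2.47, SE 0.151, adjusted p = 4.93e-08). Smad5, which carries BMP and anti-Müllerian hormone signals into the nucleus, was at 327 ± 2.38 CPM in females and 255 ± 4.66 in males (SD, n = 3; 0.36, SE 0.0796, adjusted p = 0.00334). Of 23 tested Hox genes with a start peak, 6 were higher in females and 7 higher in males, against 13.2% and 14.1% of all genes tested.

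**Figure D4:**
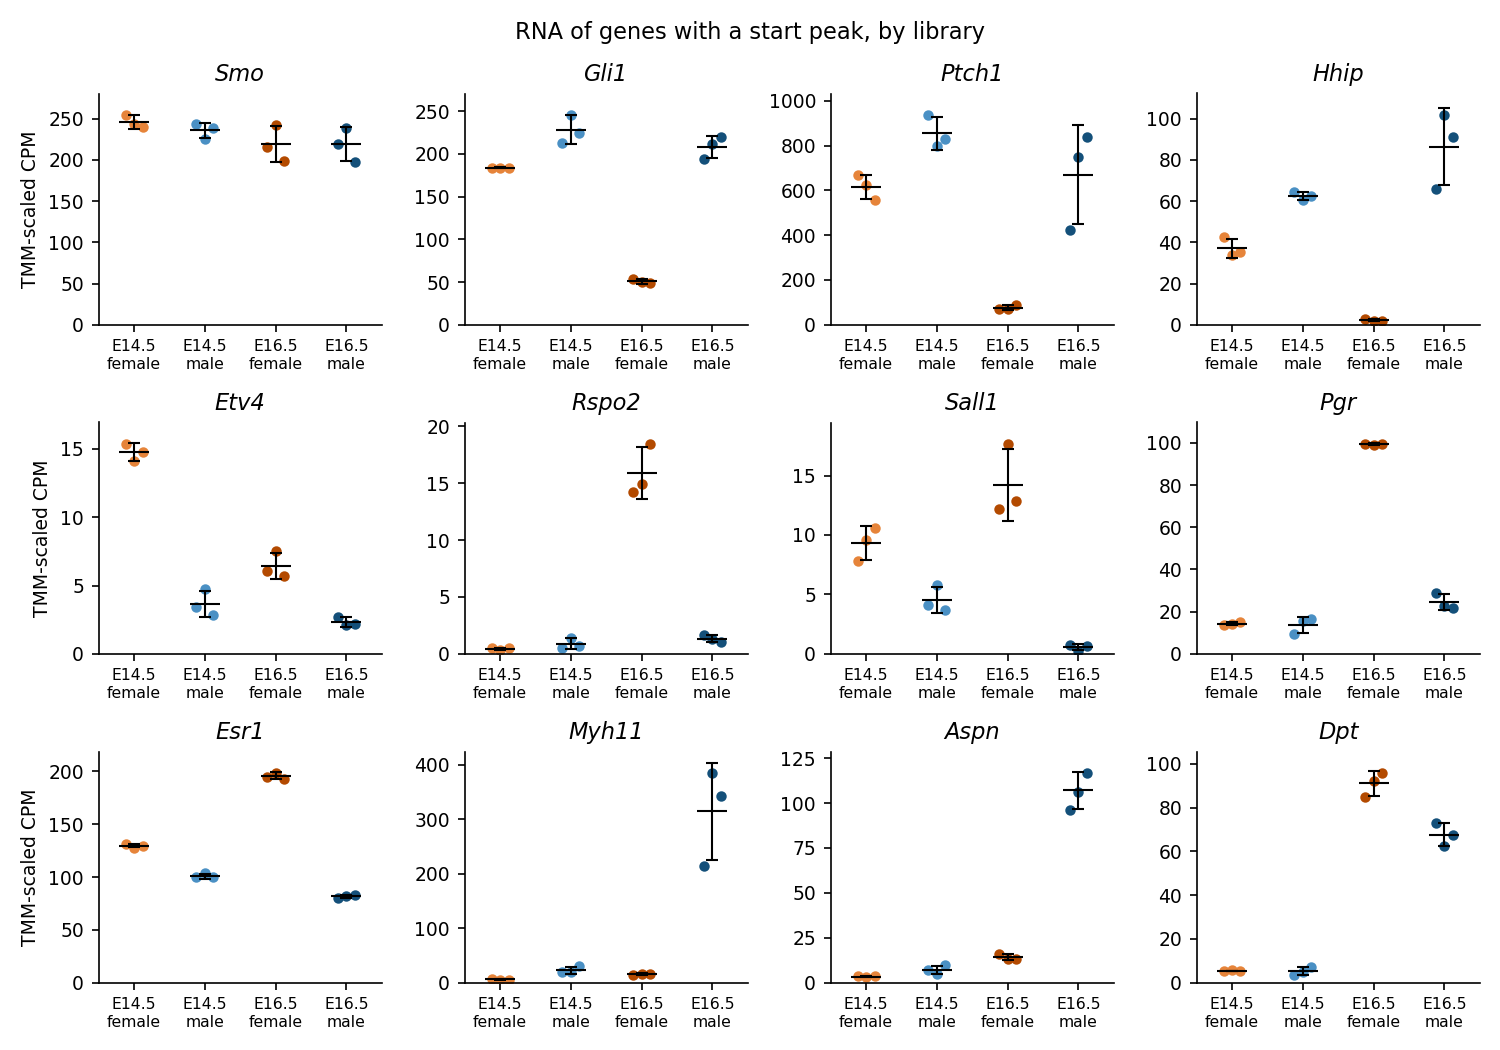
TMM-scaled CPM of 12 genes in each fetal library by sex and age; points are libraries, horizontal lines are group means and error bars the SD (n = 3). Smo overlaps between sexes, Gli1, Ptch1, Hhip, Myh11 and Aspn are lower and Pgr, Esr1, Rspo2 and Sall1 higher in E16.5 females than in E16.5 males.

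Age in females gave the largest of the 6 counts. There 5992 of 14100 start-peak genes (42.5%) differed between E14.5 and E16.5, against 39.6% of all genes tested, with 3242 higher at E16.5 (background 21.0%) and 2750 lower (background 18.6%). In males 3461 (24.5%) differed, against 23.3%, with 2003 higher (background 13.1%) and 1458 lower (background 10.2%). With library size alone as the scale the split was 2669 higher and 3285 lower in females and 1543 higher and 2165 lower in males, which turned the majority from higher to lower in both. When only the 6 male libraries were fitted the count was 2281. The sex and age comparisons share libraries, so each gene's values are given side by side and are not independent. Fold changes with age are log2, E16.5 over E14.5.

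Gli1, Ptch1 and Hhip fell with age in females. Gli1 went from 184 ± 0.295 to 50.7 ± 2.88 CPM (SD, n = 3; log2 fold change -1.86, SE 0.0710, adjusted p = 8.93e-11) and Ptch1 from 616 ± 55.0 to 76.6 ± 10.7 CPM (-3.01, SE 0.233, adjusted p = 5.13e-06). Hhip went from 37.2 ± 4.61 to 2.17 ± 0.455 CPM (-4.10, SE 0.185, adjusted p = 3.43e-09). In none of the 3 did the libraries of the 2 ages overlap, which the naming rule required of Ptch1 and Hhip. In males the values were 228 ± 17.0 and 208 ± 13.3 CPM for Gli1 (-0.13, SE 0.0680, adjusted p = 0.195) and 855 ± 74.7 and 671 ± 219 CPM for Ptch1 (-0.35, SE 0.215, adjusted p = 0.285), neither of which passed. Hhip rose in males, from 62.5 ± 1.99 to 86.3 ± 18.7 CPM (0.47, SE 0.144, adjusted p = 0.0328), a call lost without the filter on low counts or without any male library but E16.5 replicate 1 (adjusted p 0.0674 to 0.119). Of the 14 Hedgehog genes, 2 rose and 5 fell in females, and 2 rose and 3 fell in males. Over all genes tested, 21.0% rose and 18.6% fell in females, and 13.1% rose and 10.2% fell in males.

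Pgr and Esr1 rose with age in females. Pgr went from 13.8, 14 and 15.1 CPM to 99.7, 98.8 and 99.6 CPM (log2 fold change 2.80, SE 0.165, adjusted p = 4.81e-08). Pgr also rose in males, from 13.8 ± 3.77 to 24.5 ± 3.97 CPM (SD, n = 3; 0.80, SE 0.159, adjusted p = 0.00260). Esr1 rose in females, from 129.5 ± 1.45 to 196 ± 3.42 CPM (SD, n = 3; 0.60, SE 0.0510, adjusted p = 2.93e-07), and fell in males, from 101 ± 2.39 to 81.9 ± 1.43 CPM (-0.31, SE 0.0511, adjusted p = 0.000341).

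All 7 smooth muscle genes with a start peak rose in males, and 5 rose and 1, Tagln, fell in females (-0.66, adjusted p = 0.0253). The shares of all genes tested that rose were 13.1% in males and 21.0% in females, and 18.6% fell in females. The call of Tagln was lost without any of the 3 E14.5 libraries or E16.5 replicate 1 or 2 (adjusted p 0.0501 to 0.101). Myh11 went from 19.1, 20.1 and 30.2 CPM to 215, 386 and 342 CPM in males (log2 fold change 3.75, SE 0.261, adjusted p = 5.04e-06), and from 6.43 ± 1.09 to 15.5 ± 1.76 CPM in females (SD, n = 3; 1.26, SE 0.277, adjusted p = 0.00574). Acta2 in females went from 170.3 ± 8.81 to 275 ± 54.9 CPM (0.69, SE 0.236, adjusted p = 0.0421), a call that was lost when any 1 of the 6 female libraries was left out (adjusted p 0.0514 to 0.134) or without the filter on low counts (adjusted p = 0.0857). Aspn, asporin, a small matrix proteoglycan whose AT-rich start is shown above, went from 6.90, 5.02 and 9.63 CPM to 96.4, 106 and 117 CPM in males (3.87, SE 0.184, adjusted p = 1.79e-08). Dpt, dermatopontin, another matrix protein, went from 3.66, 5.14 and 7.20 CPM to 72.8, 62.5 and 67.7 CPM in males (3.62, SE 0.162, adjusted p = 4.49e-09) and from 5.38 ± 0.208 to 91.1 ± 5.66 CPM in females (4.08, SE 0.168, adjusted p = 1.04e-09). Fgf10, a mesenchymal growth factor gene, rose in both, from 4.80 ± 0.330 to 33.5 ± 1.1 CPM in females (2.81, SE 0.117, adjusted p = 1.63e-10) and from 14.1 ± 0.679 to 46.2 ± 7.57 CPM in males (1.71, SE 0.104, adjusted p = 1.31e-08).

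Hmga2, a chromatin protein gene of early development, fell in both sexes. It went from 619, 589.8 and 580.4 CPM to 116, 111 and 92.2 CPM in females (log2 fold change -2.48, SE 0.164, adjusted p = 3.17e-07) and from 393, 393 and 329 CPM to 68.2, 43.7 and 43.5 CPM in males (-2.84, SE 0.167, adjusted p = 1.85e-07). Igfbp3, which binds insulin-like growth factors, fell from 560.2 ± 49.6 to 125 ± 39.8 CPM in males (SD, n = 3; -2.16, SE 0.211, adjusted p = 3.42e-05). Of all genes tested, 18.6% fell in females and 10.2% in males. Of 10 tested genes of the anti-Müllerian hormone pathway with a start peak, 7 fell in females and 4 in males and none rose. Smad5 was one of them, at 586 ± 14.7 and 327 ± 2.38 CPM in females (-0.84, SE 0.0800, adjusted p = 8.92e-07), while Bmpr1a, a type I receptor of the pathway, was at 263 ± 8.44 and 234 ± 9.96 CPM (-0.17, SE 0.0812, adjusted p = 0.108). Npy1r, a neuropeptide Y receptor gene, went from 0.468, 0.438 and 0.471 CPM to 19.1, 18.7 and 19.6 CPM in females (5.37, SE 0.453, adjusted p = 4.16e-06). Hspa1a and Hspa1b, near-identical heat-shock genes whose reads cannot be fully told apart, were high and uneven in E16.5 females, at 141, 293 and 19.2 CPM for Hspa1a and 246, 512 and 29.6 CPM for Hspa1b. Without female replicate 2 at E16.5 the log2 fold change with age was 4.41 for Hspa1a, against 5.33 with it, and 4.27 for Hspa1b, against 5.20.

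Sex and age combined differently for a smaller set. The sex difference itself differed between E14.5 and E16.5 for 1537 of 14100 start-peak genes (10.9%), against 10% of all genes tested, with 686 moving to the female side by E16.5 (background 4.66%) and 851 to the male side (background 5.36%). The count was 2350 without E16.5 male replicate 1. Of the 1537, the absolute difference was larger at E16.5 for 1341 and at E14.5 for 196. The sex difference passed at E16.5 only for 1124 and at E14.5 only for 107, at both ages in the same direction for 184 and in opposite directions for 70. At neither age did it pass for 52. Not passing at an age does not show that the sexes were equal then. The same split over all genes tested was not computed, so nothing particular to start-peak genes is read from it. Wfdc1 and Dpp10 moved apart with age, by -2.72 (SE 0.180, adjusted p = 1.79e-07) and 2.96 (SE 0.166, adjusted p = 3.91e-08) on the log2 scale.

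Genes called with larger fold changes had an open start less often. At E16.5, of genes that passed the test and differed between the sexes by under 1.5-fold, 93.7% had a start peak (95% Wilson interval 92.7 to 94.5). The share was 84.0% from 1.5- to 2-fold, 67.3% from 2- to 4-fold and 60.2% (54.9 to 65.2) at 4-fold or more, against 79.1% of all tested genes. These classes also differ in level, with a median of 47.6 CPM in the first and 1.14 CPM in the last. Among genes with a mean of at least 10 CPM, a split added after the first result was seen, the shares were 95.1%, 93.0%, 88.7% and 87.5% (77.2 to 93.5), against 95.1% of all tested genes at that level. The gradient was thus smaller above that level, and the interval of the last class overlapped those of the middle classes. With age in females the 4 shares were 94.4%, 82.2%, 63.3% and 64.1% over all levels, and 95.7%, 93.2%, 89.9% and 79.5% at 10 CPM or more. Genes are not independent replicates, and the intervals cover counting error only.

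**Figure D5:**
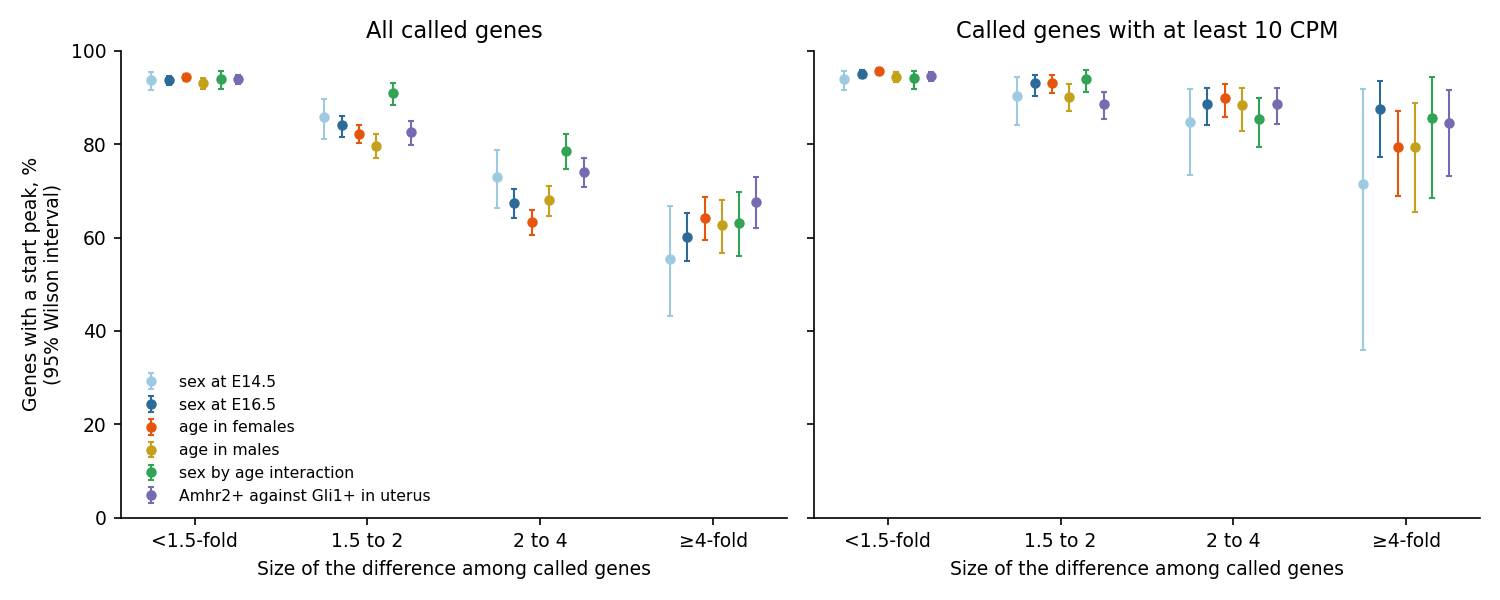
Share of genes with a start peak, in percent with 95% Wilson intervals, by size of the fold change for each comparison, over all called genes (left) and called genes of at least 10 CPM (right). At E16.5 the share between the sexes goes from 93.7% under 1.5-fold to 60.2% at 4-fold or more, and from 95.1% to 87.5% among genes of at least 10 CPM.

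Among start-peak genes, a CpG-poor start went with larger changes. At E16.5, 33.3% of 3446 start-peak genes with a CpG-poor start differed between the sexes and 27.9% of 10653 with a CpG-rich one. At 2-fold or more the shares were 11% and 4.11%. With age in females they were 14.9% and 4.74%, and with age in males 11% and 3.32%. The CpG-poor group also had the lower median level, 7.46 against 32.8 CPM, and the part of level in this was not tested. Of 78 ribosomal protein genes, 73 had a start peak (93.6%), 70 of them over the start, and 61 of the 73 had a CpG-rich start window (83.6%). At E16.5, 65 of the 73 were higher in females and none lower, with a median log2 fold change of 0.36, against 0.01 for all genes tested. At E14.5 it was 43 and 0, with a median of 0.28. Over all genes tested, 13.2% were higher in females at E16.5 and 2.59% at E14.5. With age 47 rose and none fell in females, and 27 rose and 1, Rpl24, fell in males (-1.33, adjusted p = 0.0443). The shares of all genes tested that rose were 21.0% in females and 13.1% in males. The call of Rpl24 was lost with DESeq2, with the replicate block, without the filter, with only the 6 male libraries and without any 1 of them (adjusted p 0.0566 to 0.154). The count that rose in males was 14 with library size alone as the scale and 17 with the replicate block.

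Head-to-head pairs that shared a start peak were counted by how many of their genes were called. Of 1017 pairs with both genes tested, 303 had 1 gene and 50 had both genes differing between the sexes at E16.5, and 41 of the 50 went the same way. With age in females the counts were 474, 125 and 91, and with age in males 243, 37 and 28. At E14.5, 58 pairs had 1 gene and 1 pair had both genes differing between the sexes. No share for other pairs of genes was computed, so nothing is read from these counts about pairs.

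In the uterus at E19.5, Amhr2+ cells were compared with Gli1+ cells, and the start peaks are those of the fetal mesonephros. Of 13522 start-peak genes tested, 3310 (24.5%) differed, against 23.9% of all genes tested, with 1374 higher in Amhr2+ cells (background 10.1%) and 1936 lower (background 13.7%). With library size alone as the scale the split was 2470 higher and 1396 lower, so the side that holds more genes depends on the scaling. Leaving out Amhr2+ replicate 1 gave 1630 calls, and leaving out Gli1+ replicate 1 gave 2113. The summed level of 12 epithelium markers was 53.6 to 55.8 CPM in Amhr2+ and 18.9 to 33.8 CPM in Gli1+ libraries, and that of 10 endothelium markers 27.7 to 33.2 and 39.6 to 47.4 CPM. Fold changes are log2, Amhr2+ over Gli1+.

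Genes lower in Amhr2+ cells showed the largest differences. Shisa3, an antagonist of Wnt and FGF receptors, was at 0.104, 0.108 and 0.271 CPM in Amhr2+ cells and 12.3, 19.7 and 13.9 CPM in Gli1+ cells (log2 fold change -6.61, SE 0.334, adjusted p = 1.02e-05). Asb4, which encodes a ubiquitin ligase subunit, was at 0.856, 0.755 and 0.915 CPM and 38.3, 39.3 and 37.8 CPM (-5.51, SE 0.110, adjusted p = 1.16e-07). Nov, a matricellular protein gene of the CCN family, was at 0.544, 0.620 and 0.407 CPM and 18.8, 17.7 and 16.6 CPM (-5.05, SE 0.167, adjusted p = 2.17e-06). In all 3 the groups did not overlap, which the naming rule required. Ebf3, a transcription factor gene, was at 1.38 ± 0.355 and 26.1 ± 2.60 CPM (SD, n = 3; -4.24, SE 0.185, adjusted p = 5.61e-06). The matrix genes Dpt (9.32 ± 1.60 against 145 ± 25 CPM; -3.95, SE 0.175, adjusted p = 1.26e-05) and Aspn (3.98 ± 1.55 against 58.6 ± 13.7 CPM; -3.86, SE 0.308, adjusted p = 0.000343) were lower as well. So was Dcn, decorin (474 ± 11.8 against 1382 ± 169 CPM; -1.54, SE 0.0892, adjusted p = 2.19e-05). Of 28 tested genes of tract mesenchyme with a start peak, 13 were lower and 4 higher in Amhr2+ cells. The shares of all genes tested were 13.7% and 10.1%.

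Higher in Amhr2+ cells was Sall1, at 163, 149.9 and 200.5 CPM in Amhr2+ and 58.4, 40.7 and 49.3 CPM in Gli1+ cells (log2 fold change 1.79, SE 0.153, adjusted p = 0.000255). Grik3, a glutamate receptor subunit gene, was at 29.9, 26.9 and 28.2 CPM and 9.74, 6.22 and 5.07 CPM (2.01, SE 0.215, adjusted p = 0.000577). Hs3st3b1, which encodes an enzyme that sulfates heparan chains, was at 25.8, 21.3 and 42.3 CPM and 7.18, 4.12 and 5.55 CPM (2.40, SE 0.306, adjusted p = 0.00199). The groups did not overlap in these genes, which the naming rule required of Grik3 and Hs3st3b1. Cnr1, a cannabinoid receptor gene, was at 18.5, 10.1 and 35.3 CPM and 4.97, 3.87 and 4.70 CPM (2.23, SE 0.459, adjusted p = 0.0174), and the call was lost without Amhr2+ replicate 1 or Gli1+ replicate 1 or 2 (adjusted p 0.0510 to 0.0739) or without the filter on low counts (adjusted p = 0.0783). Smad5 was higher too, at 484 ± 54.5 against 342 ± 8.95 CPM (SD, n = 3; 0.50, SE 0.0840, adjusted p = 0.00392), and of 9 tested genes of the anti-Müllerian hormone pathway with a start peak 4 were higher and none lower. The shares of all genes tested were 10.1% higher and 13.7% lower.

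Of the Hedgehog genes with a start peak, 5 of 13 tested were lower in Amhr2+ cells and none higher. Over all genes tested, 13.7% were lower and 10.1% higher. Boc was at 74.7 ± 6.97 CPM in Amhr2+ and 178 ± 7.65 CPM in Gli1+ cells (SD, n = 3; log2 fold change -1.25, SE 0.0779, adjusted p = 3.06e-05). Gli1 itself was at 11.8, 12.3 and 7.53 CPM in Amhr2+ and 16.2, 21.2 and 16.3 CPM in Gli1+ cells (-0.76, SE 0.195, adjusted p = 0.0261), a call lost without Amhr2+ replicate 1 or Gli1+ replicate 1 or 2 (adjusted p 0.0514 to 0.0698). Esr1 was at 458 ± 25.4 and 375 ± 27.1 CPM (SD, n = 3; 0.29, SE 0.0738, adjusted p = 0.0237), and this call was lost without Amhr2+ replicate 1 or 2 or Gli1+ replicate 3 (adjusted p 0.0657 to 0.0911).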

How the data were processed

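The members and the gene lists were chosen with earlier results of these data known. The authors deposited read counts per gene for 12 fetal and 6 uterine RNA-seq libraries (unit: counts, not normalized) and one list of ATAC-seq peak positions over 8 pooled samples, with no score. The submitters' processing notes name mm10, STAR 2.5, featureCounts (Subread 1.5.0-p1), Bowtie 1.2, SAMtools 1.3.1, Picard, bedtools 2.24.0 and MACS2 2.1.1, without parameters. Per the labels' protocols, fetal libraries used a non-stranded kit and uterine ones a stranded kit. The strand setting and annotation used in counting are not given in the sources used here, so overlapping and antisense genes are uncertain. Gene starts came from the coordinates in the count table, which reach the outermost transcript, and 1 gene with unreadable coordinates (Rnu11) was left out.

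Counts were tested with edgeR 4.0.16 in R 4.3.3: TMM factors, filterByExpr and the quasi-likelihood F test over all genes, with Benjamini-Hochberg adjustment and a threshold of 0.05. The 12 fetal libraries were fitted together, without the replicate number, and the 6 uterine libraries apart. Printed CPM are TMM-scaled, and RPKM divide them by the union exon length of GENCODE vM21, which matched 39338 of 40560 genes. The calculations were tested on simulated data. DESeq2 1.42.0 was an alternative. Share intervals are 95% Wilson intervals and cover counting error only. Same-numbered libraries deviated together at E16.5 (correlations 0.28, 0.11 and 0.40 between the sexes, each above 0.1). Female replicate 2 and male replicate 1 of that age, which do not share a number, also correlated at 0.11. At E14.5 (0.07, 0.05 and 0.05), between ages and in the uterus same-numbered libraries did not reach 0.1 in every pair. The main fits take no pairs, also at E16.5, and a fit with the replicate number as a block was an alternative. Genes were named by rule: per comparison, the 4 largest changes in each direction among start-peak genes that passed, reached 10 CPM in the higher group and did not overlap. For the interaction, 10 CPM in the highest of the 4 groups was needed and overlap was not considered. Xist and other genes used to check sex were left out of this step. The rule also took the 10 widest peaks, the 10 most abundant genes without a start peak, the 10 silent genes with the widest peaks, the starts with most peaks and any gene of the lists. Some genes that the rule takes are not reported here. Sequences were read from GRCm38.p6 (RefSeq), whose chromosome lengths hold all peaks and genes.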

Additional observations from a re-analysis of the deposited data

Results flagged for a closer look

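The sex difference differed between E14.5 and E16.5, by the test of that difference itself in edgeR's quasi-likelihood model, for 1537 start-peak genes. Values below are log2 changes of the female-to-male ratio from E14.5 to E16.5. It rose by 4.59 for Rspo2 (adjusted p = 7.02e-06), 4.46 for Slc26a7, an anion exchanger gene (adjusted p = 1.91e-05), and 3.58 for Sall1 (adjusted p = 3.27e-05). Slc26a7 changed side: it was at 2.38 ± 1.05 CPM in females and 7.31 ± 1.88 in males at E14.5, and at 36.7 ± 7.11 and 5.01 ± 0.663 at E16.5 (SD, n = 3). The change was -4.56 for Hhip (adjusted p = 1.05e-07), -3.11 for Fam46c, a poly(A) polymerase gene (adjusted p = 0.000268), -2.81 for Nalcn, a sodium leak channel gene (adjusted p = 4.51e-07), and -2.80 for Lypd6, a modulator of Wnt signalling (adjusted p = 2.62e-07). Lypd6 was at 23.1, 31.3 and 31.3 CPM in E16.5 males and between 3.25 and 5.38 CPM in every other fetal library.

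Among Hedgehog genes the change was -2.66 for Ptch1 (adjusted p = 0.000420) and -1.73 for Gli1 (adjusted p = 3.91e-08). Among receptors it was 0.91 for Esr1 (adjusted p = 9.88e-07) and 2.0 for Pgr (adjusted p = 9.06e-05). For Tcf21 it was -1.03 (adjusted p = 0.0363), and this call was lost with library size as the scale, without the filter on low counts, or without E14.5 female replicate 2 or 3, E14.5 male replicate 2 or any E16.5 male replicate (adjusted p 0.0559 to 0.106).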

How the results depend on the processing

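Over 131 values of named genes and 1511 values under alternatives, no called value changed direction. Turns of sign in values that were not called were not counted. In all, 57 calls were lost, 46 of them by leaving out 1 library, in 10 genes: Gli1, Acta2, Cnr1, Esr1, Tcf21, Hhip, Nr3c1, Tagln, Rpl24 and Hspa1b. The replicate block ended 2 of these calls with age, Hspa1b in females (4.55, adjusted p = 0.0506) and Rpl24 in males (-1.32, adjusted p = 0.0854). Of 106 alternative values of counts and shares, 95 were taken as unchanged. For a count this means within 1.5 times the main one, and for the difference in share of counts only the same sign. Counts with the replicate block were 1353 for sex at E14.5 (961 without it), 5007 at E16.5 (4120), 5264 for age in females (5992), 2828 in males (3461), 2265 for the interaction (1537) and 4051 in the uterus (3310). Apart from E16.5 the samples share only a number: same-numbered correlations were 0.07, 0.05 and 0.05 at E14.5, where each library correlated best with its own number, and 0.00, 0.22 and 0.24 in the uterus, where Amhr2+ replicate 1 did not. The counts outside 1.5 times were age in males with only the 6 libraries compared (2281) and some with 1 library left out. Leaving out 1 library gave 464 to 1476 for sex at E14.5, 1135 to 2350 for the interaction and 1630 to 2972 in the uterus. The share of counts from start-peak genes at E16.5, 0.187 points higher in females, was -0.243 points when the peak had to cover the start (exact permutation p = 0.300 for both, and 0.1 is the smallest that 3 against 3 allows). The number of start peaks was 11209 under that rule, 12686 with peaks of at least median width and 18768 within 2 kb. The depth of the ATAC-seq samples is unknown, so a start without a peak is not shown to be closed.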
